A study of Mus musculus with 12 samples.

Results

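The nuclear-encoded subunits of the oxidative phosphorylation complexes were examined in cardiac fibroblasts, stromal cells that lay down matrix. They came from mouse left ventricles at day 3 of a myocardial infarction. Members were the gene symbols starting with Ndufa, Ndufb, Ndufc, Ndufs, Ndufv, Uqcr, Cox4, Cox5, Cox6, Cox7, Cox8 or Atp5, together with Sdha, Sdhb, Sdhc, Sdhd and Cyc1, without assembly factors (Ndufaf) and pseudogene symbols ending in -ps. The rule found 88 of the 18771 genes of the deposited table, of which 38 belong to complex I, 4 to complex II, 9 to complex III, 20 to complex IV and 17 to complex V. Ndufa4 and Ndufa4l2 were counted with complex IV, where the NDUFA4 protein is now placed. Subunits encoded by mitochondrial DNA were not analysed here.

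All mice carried CreER, a recombinase switched on by tamoxifen, at Pdgfra, a receptor gene expressed in fibroblasts. All had the infarct made by tying off a coronary artery, the left anterior descending, permanently. The 6 control libraries had the genotype PDGFRa CreER/+;Pfas fl/+ and so carried a single floxed allele. The 6 Pfas CKO libraries had PDGFRa CreER/+;Pfas fl/fl, with both alleles floxed. Pfas encodes an enzyme that builds purines de novo. The Pfas CKO mice received tamoxifen 7 days before, 3 days before and 1 day after the infarct. The sources do not state the treatment of control mice, so effects of tamoxifen and genotype cannot be told apart. The age of the mice is not given in the labels. No label says whether each library is a different mouse, so p-values reflect the spread of these libraries only, and that spread may be technical.

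Oxidative phosphorylation couples the transfer of electrons from NADH and succinate to oxygen with the making of ATP. Complex I oxidises NADH, complex II oxidises succinate and is also an enzyme of the citric acid cycle, complex III passes electrons from ubiquinol to cytochrome c, complex IV reduces oxygen, and complex V uses the proton gradient to make ATP. Most subunits are encoded in the nucleus, and several of complex IV exist as pairs of isoforms that replace each other in muscle, testis or low oxygen.

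Each library held between 20320133 and 20950074 estimated counts. Levels were compared between genotypes as CPM (counts scaled to a fixed library size) after TMM, a per-library factor that centres most genes on no change, and between genes as TPM (the matching measure for transcripts, corrected for length). Libraries fell into near-identical sets within each genotype, and control 1 to 3, control 4 to 6, and Pfas CKO 1, 3, 5 and 6 each formed such a set, while Pfas CKO 2 and Pfas CKO 4 stood alone. Mean chi-square values per gene lay at 1.69 to 5.28 within sets, 17.5 to 40.4 between sets of a genotype and 169.6 to 252.6 between genotypes. Results are given with all 12 libraries, and counts and main members also with each set summed into a single sample. Pfas itself was at 22.4, 23.1 and 24.9 CPM (lowest, median and highest of 6) in control and at 8.01, 9.43 and 17.4 CPM in Pfas CKO. The groups did not overlap, and Pfas CKO 2 (17.4 CPM) and Pfas CKO 4 (14.5 CPM) kept the most. The log2 fold change of Pfas was -1.05 (SE 0.16, adjusted p = 2.26e-05, edgeR quasi-likelihood). Fibroblast markers had the highest summed CPM of the cell type lists in every library, at 16000 to 19400 CPM across controls and 11800 to 15000 CPM in Pfas CKO. CPM is not corrected for length, so this order does not compare transcript numbers. By mean TPM the macrophage marker Lyz2 stood at 7585 in control and 5844 in Pfas CKO, above every fibroblast marker (at most 3016 and 1779). Pdgfra was 121.2 ± 28.6 CPM in Pfas CKO against 209.8 ± 8.14 CPM in control (SD, n = 6 each). Of 10 fibroblast markers 6 were higher and 4 lower. Macrophage markers summed to 5800 to 6330 CPM across controls and 5410 to 7290 CPM in the other group. In such bulk samples, fewer cells of a type and less RNA per cell cannot be told apart.

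Of the 88 members, 84 could be tested. Ndufb4b, Cox7b2 and Cox8c were blank in some or all control libraries and had at most 3.51 estimated counts where a value was given, and Cox8b, with 1 to 8 counts a library, did not pass the filter on low counts. In control cells the 88 members held 1.40 to 1.46% of TPM. The most abundant transcripts there were Atp5b, the catalytic beta subunit of ATP synthase, at 927.8 ± 34.0 TPM, and Cox4i1, the widely expressed form of cytochrome c oxidase subunit 4, at 850.1 ± 63.4 TPM (SD, n = 6). Within complex I, control levels ran from 14.7 ± 1.80 TPM for Ndufa11, a membrane-arm accessory subunit, to 182.8 ± 8.61 TPM for Ndufb8, an accessory subunit of the distal membrane arm. Complex II was the most even, from 101.9 ± 7.35 TPM for Sdhc to 118.7 ± 4.28 TPM for Sdhb. Median control levels per subunit were 82.1 TPM in complex I, 109.0 in II, 132.0 in III, 238.0 in IV and 271.0 in V.

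Differences between genotypes were small. With all libraries, 16 members were higher in Pfas CKO and 21 were lower of 84 tested (19.0% and 25.0%, edgeR quasi-likelihood, adjusted p under 0.05 over 13600 genes). Over all genes, 33.4% were higher and 35.2% were lower, so the shares among subunits lay below the background in both directions. No member differed by 2-fold or more (0 of 84), against 1798 of all genes (13.2%). The median absolute log2 fold change was 0.141 for the subunits and 0.379 for all genes tested. Complex I had 2 subunits higher and 13 lower of 37, and complex II had 0 higher and 2 lower of 4. Complex III was divided, with 3 higher and 4 lower of 9. Complex IV had 6 higher and 0 lower of 17, and complex V had 5 higher and 2 lower of 17. Median log2 fold changes were -0.08 for complex I, -0.19 for II, -0.12 for III, 0.15 for IV and 0.10 for V, against -0.02 for all genes. The counts in the more frequent direction were close to the background share in complexes I, IV and V, and whether the complexes differ from each other was not tested. Pfas CKO 2 weighed on complexes IV and V. Without it complex IV had 5 higher and 3 lower with a median of 0.06, and complex V had 4 higher and 3 lower with a median of 0.05. These directions are relative to the TMM scaling, whose factors were 1.071 to 1.101 in control and 0.9139 to 0.9339 in Pfas CKO. With library totals alone the median of all genes and the median of the members both moved to -0.26, every complex had a median below 0 (-0.08 and -0.13 for complexes IV and V), and 1 member was higher and 49 were lower, against a background of 20.4% higher and 53% lower.

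The control libraries, which share a genotype, also differed from each other in these genes. Control 1 to 3 were submitted apart from control 4 to 6 and the Pfas CKO libraries. Control 4 to 6 against control 1 to 3 gave 27 members higher and 19 lower of 84, against a background of 23.5% and 22% of 13727 genes. Log2 fold changes reached -0.58 for Ndufa5 and 0.58 for Ndufb4c, and 0.51 for Uqcrfs1 outside the near-identical Ndufb4 copies. Together these are 46 members, against 37 called between genotypes with all 12 libraries. Pfas CKO against control 4 to 6 alone gave 8 members higher and 19 lower, where 4296 and 4466 of 13839 genes were called. By complex the higher and lower counts were 2 and 12 for I, 0 and 3 for II, 1 and 2 for III, 4 and 0 for IV, and 1 and 2 for V. Against each control set in turn, 15 members were called in the same direction. The 7 higher ones were Ndufa1, Ndufc2, Uqcrh, Cox4i2, Cox6c, Cox7a2 and Cox7a2l, and the 8 lower ones were Ndufa5, Ndufa9, Ndufb8, Ndufs7, Ndufs8, Ndufv1, Sdha and Sdhb. Both comparisons use the same Pfas CKO libraries, and the share of all genes called in this way was not computed. With each near-identical set summed into 1 sample, 3 members remained higher (Uqcrh, Cox6c and Cox7a2) and 4 remained lower (Ndufs8, Ndufa5, Ndufa9 and Sdhb) of 85, where 18.3% of all genes were higher and 18.9% were lower. Without overlap between the 6 and 6 CPM values, 8 members lay above control (background 23.2%) and 5 lay below it (background 23.9%).

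**Figure D1:**
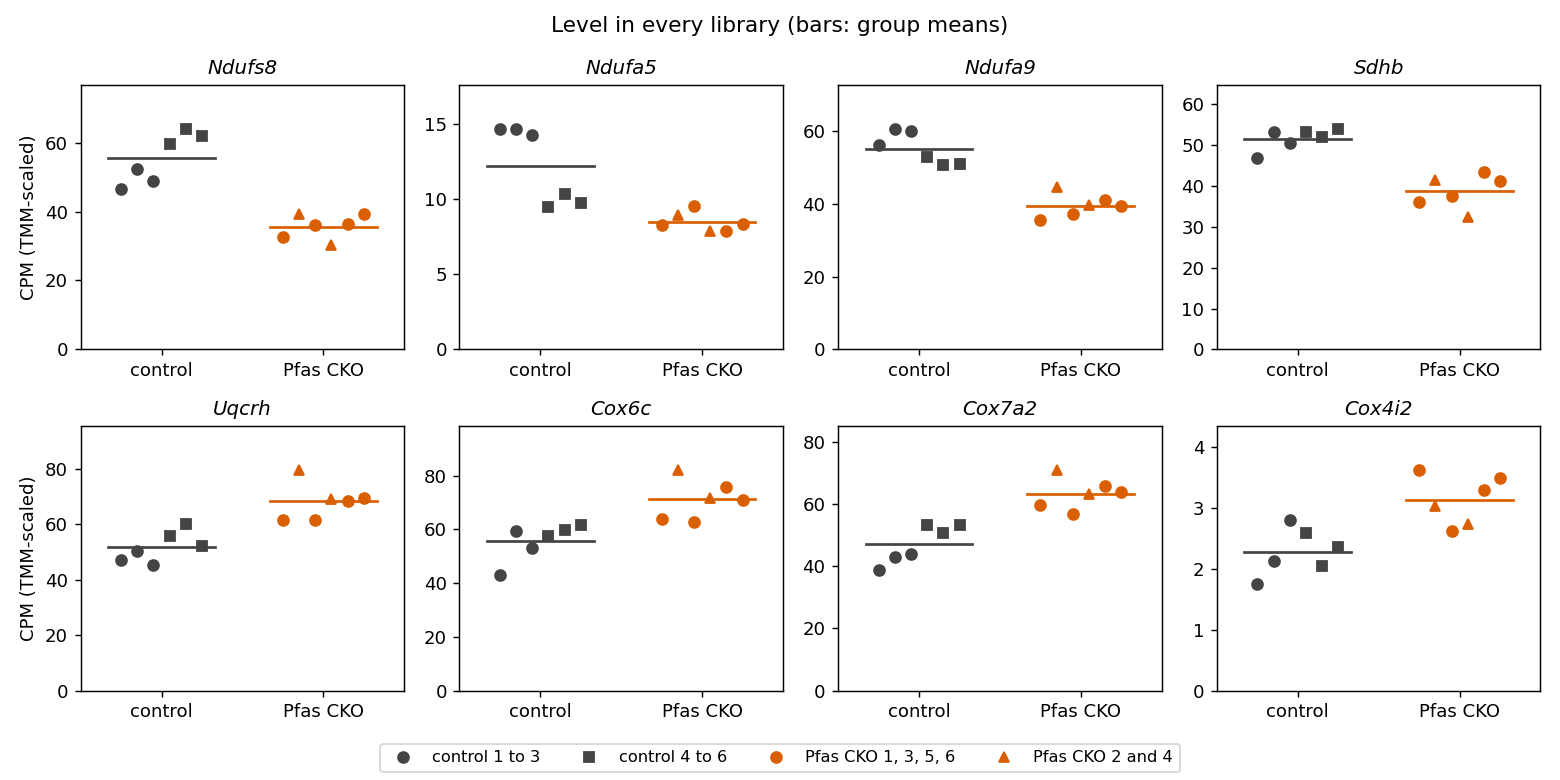
CPM of 8 subunits in each library, with group means as bars and symbols for the near-identical sets. Ndufs8, Ndufa9 and Sdhb are lower in all 6 Pfas CKO libraries than in any control library, Uqcrh, Cox6c and Cox7a2 are higher in all 6, and Ndufa5 and Cox4i2 overlap at their edges.

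Promoters of respiratory subunits are known for sites of NRF1, of ETS factors such as GABPA, of YY1 and of oestrogen-related receptors (ERR). RefSeq promoter windows (GRCm38.p6, 250 bases before to 50 after the start) were found for 70 of the 88 members and searched on both strands. The NRF1 motif GCGCANGCG was in 28.6% of member windows and 7.03% of the windows of 27025 genes, the ETS motif CCGGAAG in 24.3% and 9.93%, the YY1 motif AAGATGGC in 14.3% and 3.19%, the ERR motif AAGGTCA in 11.4% and 5.38%, and the HIF motif ACGTG in 24.3% and 21.8%. NRF1 motifs stood in 2 of 12 members called higher, 6 of 17 called lower and 12 of 38 not called. The corresponding counts were 3, 5 and 9 for ETS, 0, 4 and 6 for YY1, 1, 0 and 7 for ERR, and 5, 5 and 6 for HIF. A motif is a description of letters and not a bound site. The following windows run from 130 bases before the start to 20 after it, with motifs in capitals, and show the 2 called members with the smallest p in each direction that hold a motif there. Sdhb (chr4:140961141-140961290, plus strand) and Sdha (chr13:74350221-74350370, minus strand) were lower, and Uqcrh (chr4:116075051-116075200, minus strand) and Cox8a (chr19:7217597-7217746, minus strand) were higher. Sdha carries 3 NRF1 motifs and 1 HIF motif, and the other windows each carry 1 ETS motif, on the reverse strand in Uqcrh and Cox8a.
Sdhb: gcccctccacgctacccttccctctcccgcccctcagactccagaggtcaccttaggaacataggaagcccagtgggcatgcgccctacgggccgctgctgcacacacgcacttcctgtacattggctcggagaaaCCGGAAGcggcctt
Sdha: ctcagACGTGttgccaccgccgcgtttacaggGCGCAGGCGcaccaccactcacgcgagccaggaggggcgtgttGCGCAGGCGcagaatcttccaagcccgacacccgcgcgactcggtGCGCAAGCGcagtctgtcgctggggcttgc
Uqcrh: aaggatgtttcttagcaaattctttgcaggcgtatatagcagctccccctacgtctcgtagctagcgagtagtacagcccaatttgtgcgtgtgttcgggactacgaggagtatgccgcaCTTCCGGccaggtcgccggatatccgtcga
Cox8a: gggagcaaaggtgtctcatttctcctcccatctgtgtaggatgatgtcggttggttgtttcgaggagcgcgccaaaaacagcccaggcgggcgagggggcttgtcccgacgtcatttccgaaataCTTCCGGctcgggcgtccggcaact
The ETS motif is thus within 10 bases of the annotated start in a gene that was lower (Sdhb) and in 2 that were higher (Uqcrh and Cox8a).

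The core subunits of complex I hold the flavin and the iron-sulfur clusters that carry electrons to ubiquinone. Of the 7 tested, 0 were higher and 5 lower, where 33.4% and 35.2% of all genes were. So small a group was not tested as a set. Ndufs8 (chr19:3908863-3912774, GRCm38.p6), which binds a pair of iron-sulfur clusters near the ubiquinone site, had the lowest fold change of all 84. Its level was 46.6, 56.0 and 63.9 CPM among controls (lowest, median and highest) and 30.2, 36.2 and 39.3 CPM in Pfas CKO. Every Pfas CKO library lay below every control library, although control 1 to 3 (46.6 to 52.4 CPM) were themselves below control 4 to 6 (59.5 to 63.9 CPM). The log2 fold change was -0.64 (SE 0.09, adjusted p = 1.12e-05), at -0.47 against control 1 to 3 and -0.80 against control 4 to 6. Ndufs7, the subunit with the last cluster before ubiquinone, was at 13.7, 15.0 and 16.0 CPM across controls and 10.1, 10.9 and 14.6 CPM in Pfas CKO. The groups overlapped through a single Pfas CKO library above the lowest control, and the log2 fold change was -0.37 (SE 0.08, adjusted p = 0.00125, edgeR). Ndufv1, which binds NADH and the flavin, fell by 0.23 on the log2 scale (SE 0.06, adjusted p = 0.0032) and Ndufv2 by 0.21 (SE 0.06). Ndufs1, the largest core subunit, had a log2 fold change of -0.11 (SE 0.05, adjusted p = 0.083, edgeR) and Ndufs3 one of -0.04 (SE 0.09), and neither passed the test.

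The accessory subunits of complex I, which surround the core and are needed for its assembly or stability, had 8 lower and 2 higher of 30. Both shares were below those of all genes (35.2% lower and 33.4% higher). Ndufa9, at the joint of the peripheral and membrane arms, was at 50.6, 54.4 and 60.5 CPM across controls and 35.5, 39.4 and 44.4 CPM in Pfas CKO. No Pfas CKO library reached the control range, and the log2 fold change was -0.48 (SE 0.06, adjusted p = 8.49e-06, edgeR). An antisense gene overlaps Ndufa9, and since no source states the strand setting of the counting, their reads cannot be told apart. Ndufa5, a peripheral-arm subunit, was at 9.47, 12.3 and 14.7 CPM across controls and 7.90, 8.31 and 9.56 CPM in Pfas CKO. Its control values came in 2 blocks, 14.3 to 14.7 CPM in control 1 to 3 and 9.47 to 10.4 CPM in control 4 to 6, of which only the second touched the Pfas CKO range. The log2 fold change of -0.52 (SE 0.12, adjusted p = 0.00149) was -0.78 against the first block and -0.22 against the second. Of the 2 subunits that rose, Ndufa1, a small membrane protein encoded on the X chromosome, was at 19.5, 21.5 and 23.1 CPM across controls and 23.7, 27.2 and 36.1 CPM in Pfas CKO, a log2 fold change of 0.38 (SE 0.09, adjusted p = 0.0017). Ndufc2, a membrane-arm subunit, was at 25.3, 28.8 and 31.2 CPM across controls and 31.7, 35.4 and 40.1 CPM in Pfas CKO, a log2 fold change of 0.33 (SE 0.07, adjusted p = 5.78e-04). For both genes the lowest Pfas CKO library lay above the highest control, and neither was called with near-identical libraries summed (adjusted p = 0.070 and 0.061, edgeR). Ndufb4 and Ndufb4c are near-identical copies. Both moved the same way between the control sets, with log2 fold changes of 0.52 and 0.58 in favour of control 4 to 6. How reads were shared between the copies was not tested, and their values are uncertain.

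Within complex II the 2 catalytic subunits fell and the 2 membrane anchors did not pass the test. Sdha, the flavoprotein that oxidises succinate and the gene with 3 NRF1 motifs in its promoter, was at 125, 136 and 146 CPM across controls and 101, 108 and 118 CPM in Pfas CKO. Sdhb, the iron-sulfur subunit that takes its electrons, was at 46.8, 52.6 and 54.0 CPM across controls and 32.5, 39.4 and 43.3 CPM in Pfas CKO. In both genes each Pfas CKO library was below each control library. The log2 fold changes were -0.33 for Sdha (SE 0.06, adjusted p = 8.87e-05) and -0.41 for Sdhb (SE 0.07, adjusted p = 5.87e-05, edgeR), and Sdha was no longer called with near-identical libraries summed (adjusted p = 0.086). Sdhc, an anchor with haem and ubiquinone binding, was at 42.9, 49.1 and 53.9 CPM across controls and 47.1, 49.5 and 50.9 CPM in Pfas CKO, a log2 fold change of 0.02 (95% interval -0.10 to 0.13) that became -0.21 with library totals alone. Sdhd, its partner anchor, had a log2 fold change of -0.06 (95% interval -0.22 to 0.10).

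In complex III the core proteins fell and the hinge protein rose. Both large core proteins, Uqcrc1 and Uqcrc2, were lower, by 0.15 (SE 0.05, adjusted p = 0.0208) and 0.12 (SE 0.05, adjusted p = 0.0344, edgeR) on the log2 scale, and neither was called with near-identical libraries summed or against control 1 to 3 alone. Of the redox subunits, Uqcrfs1, the Rieske iron-sulfur protein, was at 43.5, 53.9 and 66.7 CPM across controls and 64.9, 67.5 and 72.9 CPM in Pfas CKO. Its log2 fold change was 0.32 (SE 0.10, adjusted p = 0.0134), at 0.61 against control 1 to 3 but 0.08 and not called against control 4 to 6 (adjusted p = 0.199), nor was it called with near-identical libraries summed (adjusted p = 0.130, edgeR). Cyc1, cytochrome c1, had a log2 fold change of -0.12 (SE 0.05, adjusted p = 0.0535, edgeR) and did not pass. Uqcrh, the hinge protein beside cytochrome c1 and a gene with an ETS motif before its start, was at 45.5, 51.3 and 60.2 CPM across controls and 61.6, 68.7 and 79.6 CPM in Pfas CKO. All 6 Pfas CKO libraries were above the control range, with a log2 fold change of 0.40 (SE 0.08, adjusted p = 3.02e-04) that was 0.52 against control 1 to 3 and 0.28 against control 4 to 6. Among the other small subunits Uqcrb rose by 0.14 on the log2 scale, a direction that turned to -0.09 with library totals alone, while Uqcr11 and Uqcrq fell by 0.33 and 0.21. None of Uqcrb, Uqcr11 and Uqcrq was called against control 4 to 6 alone or with near-identical libraries summed. Between control 4 to 6 and control 1 to 3, Uqcr11 and Uqcrq also differed, by -0.39 and -0.13.

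Complex IV had 6 subunits higher, 2 of which held with near-identical libraries summed. Cox7a2, the widely expressed form of subunit 7a, was at 38.9, 47.2 and 53.2 CPM across controls and 56.9, 63.5 and 70.8 CPM in Pfas CKO, a log2 fold change of 0.43 (SE 0.08, adjusted p = 2.29e-04, edgeR). Every Pfas CKO library exceeded every control library, and Cox7a2 was the only member still called higher with library totals alone (log2 fold change 0.20). Cox6c, a small membrane subunit, was at 43.0, 58.4 and 61.8 CPM across controls and 62.6, 71.3 and 82.0 CPM in Pfas CKO, a log2 fold change of 0.35 (SE 0.09, adjusted p = 0.00209). The lowest Pfas CKO value was just above the highest control value, and Vps13b overlaps Cox6c on the opposite strand, so their reads cannot be told apart. Cox7a2l, which joins complexes III and IV in supercomplexes, was at 66.8, 75.2 and 83.2 CPM across controls and 90.5, 94.7 and 102 CPM in Pfas CKO, again with no overlap, and its log2 fold change was 0.34 (SE 0.06, adjusted p = 1.35e-04). With near-identical libraries summed its adjusted p was 0.066 (edgeR). Cox8a rose by 0.32 (SE 0.08, adjusted p = 0.00299) and Cox5a by 0.15 on the log2 scale, with overlapping groups, and Cox5a was at -0.08 with library totals alone. The abundant Cox4i1 and Cox6a1 had log2 fold changes of -0.01 (95% interval -0.16 to 0.13) and -0.02 (95% interval -0.15 to 0.10).

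In complex V, the catalytic F1 head had 3 higher and 0 lower of 5, where 33.4% and 35.2% of all genes were. The changes were small, and their direction rested on the scaling. Atp5b was at 690, 716 and 741 CPM across controls and 750, 774 and 815 CPM in Pfas CKO. Atp5a1, the alpha subunit, was at 406, 429 and 440 CPM across controls and 440, 452 and 502 CPM in Pfas CKO. Neither pair of groups overlapped, yet the log2 fold changes of 0.12 for both (SE 0.04 and 0.05, adjusted p = 0.0144 and 0.0313, edgeR) became -0.11 with library totals alone, as that of Atp5d, the delta subunit, went from 0.22 to -0.01. The genes of the c ring, which encode the same mature protein, did not move together. Atp5g2 rose by 0.29 (SE 0.08, adjusted p = 0.00544, but -0.01 on log2(TPM + 1)) and Atp5g1 fell by 0.15 (SE 0.06, adjusted p = 0.0389) on the log2 scale, and the other gene did not pass. Atp5l, subunit g of the membrane part, rose by 0.32 (SE 0.09) and Atp5j, of the peripheral stalk, fell by 0.25 (SE 0.08), and both also differed between the control sets, by 0.40 and -0.38. With near-identical libraries summed, 0 of 17 complex V subunits were called.

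**Figure D2:**
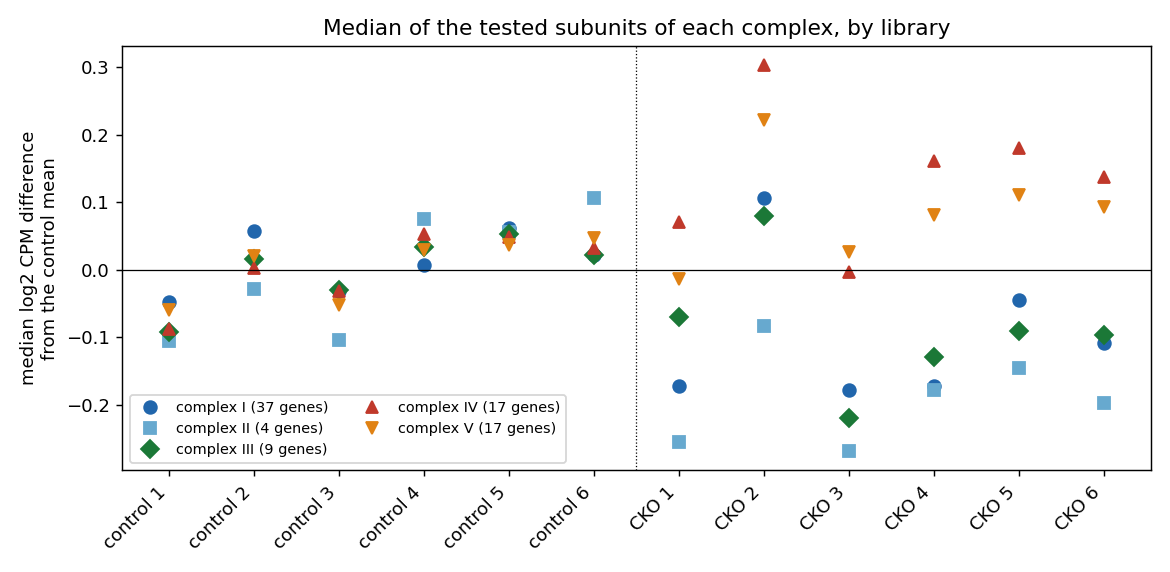
Median log2 CPM difference from the control mean over the tested subunits of each complex, by library. In Pfas CKO the complex IV medians run from -0.00 to 0.30 and the complex I medians from -0.18 to 0.11, and Pfas CKO 2 has the highest value in each of the 5 complexes.

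The median of complex IV was above that of complex I in all 6 Pfas CKO libraries. The values were 0.07 and -0.17 in Pfas CKO 1, 0.30 and 0.11 in Pfas CKO 2, and 0.16 and -0.17 in Pfas CKO 4. Pfas CKO 2, which kept the most Pfas transcript, had the highest median in every complex, and its members held 1.32% of TPM against 1.12 to 1.24% in the other Pfas CKO libraries. Pfas CKO 4, which kept the next most, had a median of -0.07 over all members, within the -0.11 to 0.05 of Pfas CKO 1, 3, 5 and 6. A link between subunit levels and the remaining Pfas transcript was not tested. Without Pfas CKO 2, 13 members were higher and 28 were lower, where 4535 and 5042 of 13715 genes were called. Without Pfas CKO 2 and 4 the counts were 14 and 29, where 4617 and 5141 of 13815 genes were called.

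Several positions in complex IV can be filled by an isoform of restricted expression, and its share of the pair was taken from TPM in each library. Cox4i2, a form of subunit 4 induced by low oxygen and abundant in lung, made up 0.928 ± 0.169% of the Cox4i1 and Cox4i2 pair in control and 1.29 ± 0.199% in Pfas CKO (SD, n = 6 each). The ranges, 0.701 to 1.14% and 1.02 to 1.62%, overlapped. Cox4i2 itself was at 1.75, 2.25 and 2.80 CPM across controls and 2.62, 3.16 and 3.62 CPM in Pfas CKO, a log2 fold change of 0.46 (SE 0.13, adjusted p = 0.00603, edgeR) that was the highest of the 84 and was not called with near-identical libraries summed (adjusted p = 0.114). Ndufa4l2, a target of the hypoxia-inducible factor HIF-1 that replaces Ndufa4, made up 8.92 ± 0.732% of its pair in control and 11.6 ± 2.99% in Pfas CKO. Pfas CKO 5 and 6 were at 8.45 and 8.75%, within the control range of 8.1 to 9.86%, and Pfas CKO 1 and 3 were above it at 11.5 and 10.5%. The highest shares were in Pfas CKO 2 (14.3%) and Pfas CKO 4 (15.9%). The log2 fold change of Ndufa4l2 was 0.30 (SE 0.16, adjusted p = 0.108) and was -0.04 without those 2 libraries, and Shmt2 overlaps the gene on the opposite strand, so reads of the 2 genes cannot be told apart. Transcripts of both isoforms are known to be abundant in pericytes of the heart. Of 8 pericyte markers 4 were higher and 1 lower, and the controls summed to 238 to 279 CPM of them. Pfas CKO 2 and 4 held 256 and 281 CPM, and the other Pfas CKO libraries 320 to 331 CPM. No pericyte marker was at 0 in every library, and their part in the isoform values was not tested.

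Heart and muscle isoforms stayed at low levels in both groups. Cox7a1 made up 4.76 ± 1.26% of the subunit 7a pair in control and 3.25 ± 0.974% in Pfas CKO, and its own log2 fold change was -0.11 (SE 0.23, adjusted p = 0.691, edgeR). Cox6a2 made up 0.902 ± 0.141% and 1.17 ± 0.269% of its pair, and Cox8b made up 0.606 ± 0.358% and 0.383 ± 0.170% of its pair on 1 to 8 counts a library. Cox6b2, the testis form of subunit 6b, made up 0.456 ± 0.119% and 0.484 ± 0.220%. All of these ranges overlapped between groups. Cardiomyocyte markers were low but higher in Pfas CKO, with 9 of 10 tested called higher and a summed level of 51.4 to 64.5 CPM against 21.4 to 23.1 CPM in control. Haemoglobin and other erythrocyte markers summed to 8.6 to 9.51 CPM in control libraries and 129 to 211 CPM in Pfas CKO, and endothelial markers to 813 to 853 and 911 to 1170 CPM. Of 5 neutrophil markers tested 2 were higher and 2 lower, with a median log2 fold change of 0.08. S100a8 and S100a9 rose by 2.18 and 3.57 on the log2 scale, while Mmp8 went from 153.7 ± 14.7 to 25.6 ± 7.78 CPM (SD, n = 6 each), and the summed level was 226 to 251 CPM in the controls and 124 to 208 CPM in the knockouts. The part of these cell types in the subunit values was not tested.

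**Figure D3:**
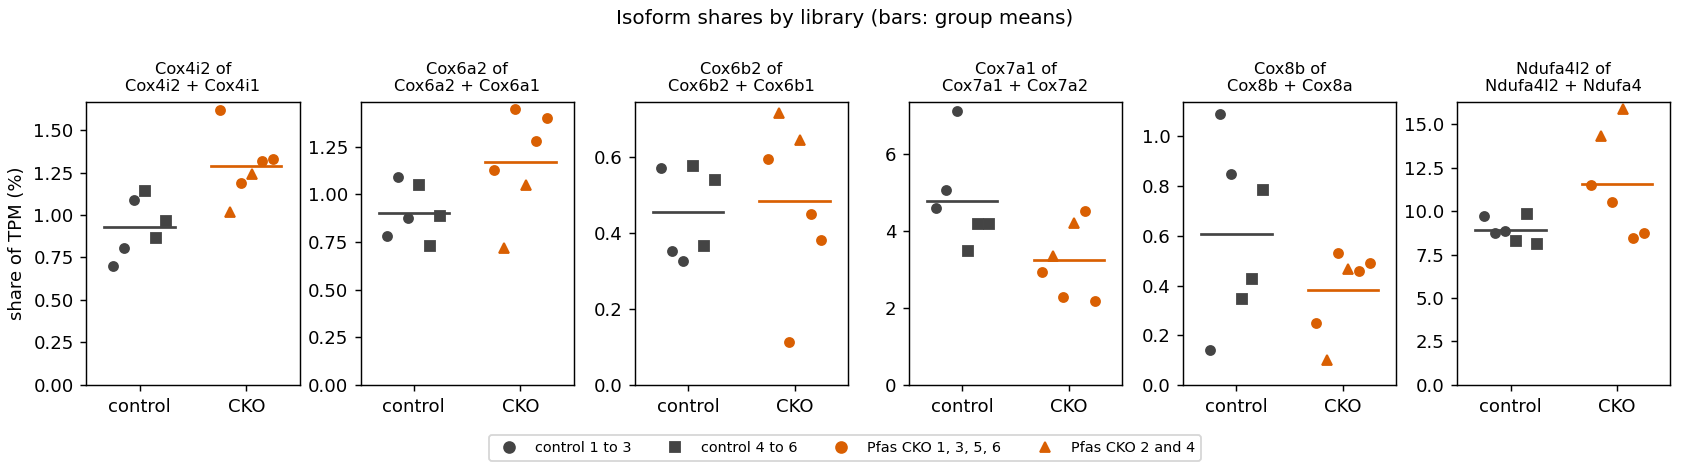
Share of TPM (%) held by the isoform of restricted expression in each of 6 isoform pairs, by library, with group means as bars. Cox4i2 shares lie mostly higher in Pfas CKO, Ndufa4l2 shares are highest in Pfas CKO 2 and 4, and the groups overlap in all 6 pairs.

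Assembly factors, which build the complexes without staying in them, were mostly lower for complexes I to IV. Of 18 tested assembly factors of complex I, 14 were lower and 0 higher in Pfas CKO, with a median log2 fold change of -0.47. Timmdc1, which helps assemble the membrane arm, fell from 19.1 ± 1.40 to 6.81 ± 0.925 CPM (SD, n = 6 each), a log2 fold change of -1.49 (adjusted p = 6.69e-10, edgeR). Tmem126b and Ecsit, members of the same assembly machinery, had log2 fold changes of -0.99 and -0.82. With near-identical libraries summed 7 of the 18 were still lower (38.9%, against 18.9% of all genes), and between the control sets 4 differed. All 4 assembly factors of complex II were lower, among them Sdhaf2, which attaches the flavin to SDHA, with a log2 fold change of -0.57, and 2 of the 4 were lower with near-identical libraries summed. For complex III 4 of 5 were lower, including Bcs1l, which inserts the Rieske protein (-0.68), and Ttc19 was higher (0.30 with TMM, but -0.01 on log2(TPM + 1)), and summing left 2 lower and 1 higher of 6. For complex IV 13 of 23 were lower and 2 were higher, against 5 and 1 with near-identical libraries summed. Cox15, needed for haem A synthesis, had a log2 fold change of -0.83 and Taco1, a translational activator of the mitochondrially encoded subunit 1, one of -0.95. Higd1a, a hypoxia-inducible protein that binds complex IV, was the exception with the smallest p, at 21.8 ± 1.42 CPM across controls and 38.7 ± 4.03 CPM in Pfas CKO, a log2 fold change of 0.82 (adjusted p = 6.74e-08, edgeR). Complex V had 2 of 4 higher (Tmem70 and Atpaf2) and 1 lower (Atpaf1), against 0 and 1 with near-identical libraries summed.

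**Figure D4:**
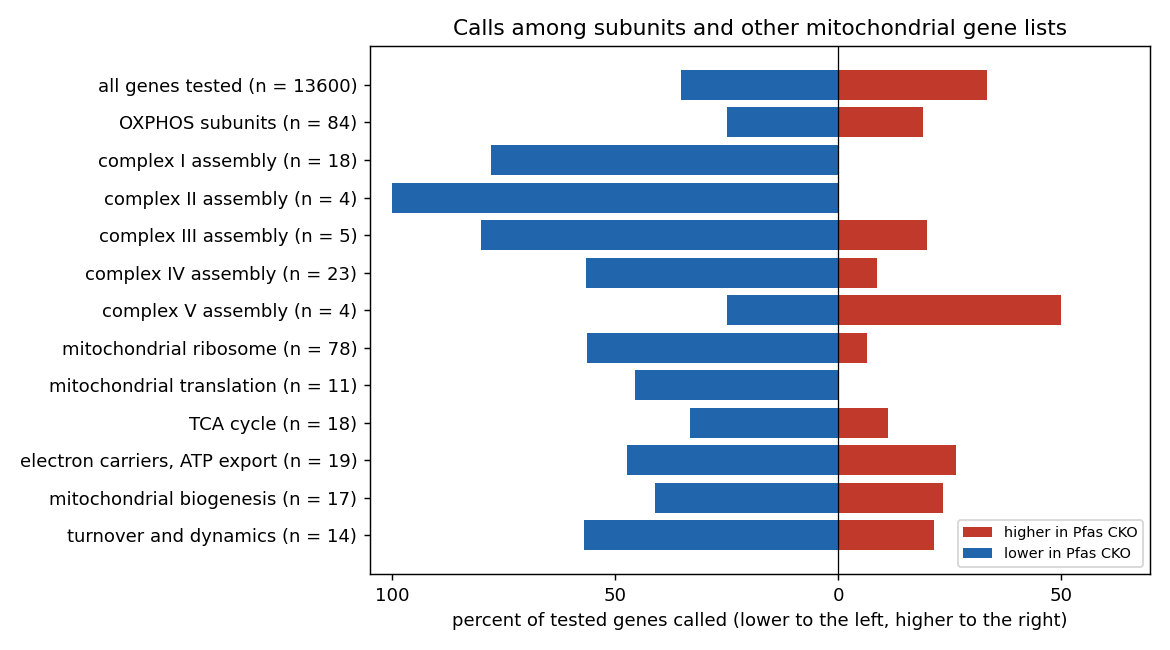
Percent of tested genes called lower (left, blue) and higher (right, red) in Pfas CKO for all genes, the subunits and 11 other mitochondrial gene lists. The subunits have 25.0% lower and 19.0% higher, complex I assembly factors 77.8% lower and 0 higher, and mitochondrial ribosomal proteins 56.4% lower.

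The mitochondrial ribosome, which makes the subunits encoded by mitochondrial DNA, had 44 of 78 proteins lower and 5 higher, with a median log2 fold change of -0.21. Mrpl10, Mrpl49 and Mrps23 led by p, with log2 fold changes of -0.93, -0.71 and -0.72. With near-identical libraries summed 19 of the 78 were lower (24.4%, near the 18.9% of all genes) and 1 was higher. Of 11 translation factors 5 were lower (4 summed) and 0 higher, among them the initiation factor Mtif2 (-0.81) and the elongation factor Tsfm (-0.63). In the citric acid cycle list 6 of 18 were lower and 2 higher with a median log2 fold change of 0.01, and 0 were called with near-identical libraries summed. Among electron carriers and ATP export 9 of 19 were lower, led by the ubiquinone synthesis genes Coq5 (-0.64), Coq8b (-0.59) and Coq9 (-0.76). In the same list 5 were higher, among them Slc25a3, the phosphate carrier, and Slc25a5, an ADP/ATP carrier, at 0.32 and 0.30. With near-identical libraries summed 5 of the 19 were lower and 0 were higher, so neither carrier was called. The biogenesis list had 7 lower and 4 higher of 17 (3 and 3 of 18 summed), and Ppargc1b, a coactivator of mitochondrial genes, had a log2 fold change of -1.36 while Gabpa, the DNA-binding part of an ETS factor, had one of 0.52. In the list of turnover and dynamics 8 of 14 were lower and 3 higher, against 1 and 2 with near-identical libraries summed, and Bnip3, a mitophagy receptor induced by hypoxia, rose from 15.3 ± 2.19 to 99.1 ± 13.1 CPM, a log2 fold change of 2.69 (adjusted p = 6.19e-12, edgeR). These lists were read only by their counts, beside the 33.4% and 35.2% of all genes with all 12 libraries. With near-identical libraries summed, 18.3% of all genes were higher and 18.9% lower. Near that share were complex IV assembly factors (21.7% lower) and the biogenesis list (16.7% lower), and turnover and dynamics lay below it (7.14% lower).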

How the data were processed

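RNA sequencing libraries of 6 control and 6 Pfas CKO samples were prepared from total RNA (1 µg each) by oligo(dT) capture, per the labels' protocols. For 18771 genes the deposited table gives estimated counts, which the authors left unnormalized, beside TPM and FPKM values that the authors scaled within each library, per the file headers. Bowtie2, RSEM and DESeq2 are named for 9 libraries in the submitters' processing notes, without roles, and none for control 1 to 3, and the build is GRCm38. No source used here gives the annotation or the strand setting. A column with the authors' mean FPKM of control 1 to 3 was not used. The 1067 genes with a blank in a control library (at most 0.0014% of a library) were left out.

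Rounded estimated counts went into the quasi-likelihood test of edgeR 4.0.16 (R 4.3.3, TMM scaling, filterByExpr) with genotype as the single factor. P-values were adjusted by Benjamini-Hochberg over all 13600 tested genes, and calls were made under 0.05. Every adjusted p is from such a fit. Near-identical libraries were those with a mean chi-square per gene under 10, computed on genes averaging at least 20 counts. Each standard error is the log2 fold change divided by the root of its F statistic. Positions are RefSeq on GRCm38.p6 (all 88 members matched), and exon overlaps are from GENCODE M21, where 28 of 85 members share exon positions with another gene. Besides Ndufa9, Cox6c and Ndufa4l2, these include Ndufb8 (on the same strand), Atp5j (with Gabpa), Atp5a1, Atp5d, Atp5l, Cox4i1, Cox5a and Cox6a2. Uqcrb, Uqcrc2, Ndufs1, Ndufs3 and Ndufa11 are also among them, and the same limit on telling reads apart holds for all. The test was checked on simulated counts of independent libraries, which does not cover the near-identical sets seen here.

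Alternatives were DESeq2 1.42.0, limma-voom (limma 3.58.1), RLE scaling, scaling by library totals alone, limma-trend with log2(TPM + 1) or log2(TPM + 0.1) where TPM averaged 1 or more, omission of the count filter, a mean of at least 5 CPM, the replicate number as a block, omission of each library, either control set alone, Pfas CKO 2 and 4 left out, near-identical libraries summed, and an adjusted p under 0.01. Isoform shares were repeated on FPKM, which is no independent check of them. The members, lists, motifs and alternatives were chosen with earlier results of these data known. The genes given with values were Pfas, up to 4 called members in each direction per complex with the smallest p, the isoform pairs, the members with the highest and lowest control TPM of each complex, and up to 3 called genes in each direction of each pathway list. Some genes taken by this rule are not described. The remaining members named (Ndufv1, Ndufv2, Ndufs1, Ndufs3, Cyc1, Sdhd, Atp5a1, Cox5a, Ndufb4 and Ndufb4c) were added for their roles after their values were seen. A single item is not reported here.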

Additional observations from a re-analysis of the deposited data

Results flagged for a closer look

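Of 78 groups of 6 libraries checked (the 38 members given in detail, and the share of TPM held by all members, in each genotype), 4 had a library set apart from the other 5 by a gap past Dixon's critical value at the usual level, where chance alone gives about 1 in 20. Ndufa11, a membrane-arm subunit of complex I, was at 26.7 CPM in Pfas CKO 2 and at 15.6 to 19.7 CPM in the other Pfas CKO libraries. Uqcrq, a small subunit of complex III, was at 53.5 CPM in control 2 and at 44.3 to 47.1 CPM in the other controls. Cox7a1, the heart and muscle form of subunit 7a, was at 1.47 CPM in control 3 and at 0.832 to 1.03 CPM in the others. Cox6b1 was at 86.8 CPM in control 5 and at 82.7 to 84.1 CPM in the others. Of these 4 genes only Uqcrq was called between genotypes.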

How the results depend on the processing

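Counts of called subunits moved most with the scaling and with how libraries were counted. Library totals alone gave 1 higher and 49 lower with a median of -0.26, log2(TPM + 1) gave 0 and 62 with -0.30, and log2(TPM + 0.1) gave 0 and 62 with -0.31. The medians of all genes in these settings were -0.26, -0.28 and -0.31. On log2(TPM + 1) 2279 genes were higher and 7280 lower of 12426, and on log2(TPM + 0.1) 2271 and 7263. For the subunits, near-identical libraries summed gave 3 and 4, and control 4 to 6 alone gave 8 higher. An adjusted p under 0.01 gave 10 and 10, against 3869 and 3999 of 13600 genes. Leaving out each library gave 13 to 22 higher, 14 to 28 lower and a median of -0.07 to 0.00. RLE scaling, DESeq2, limma-voom and both filters kept the counts within 1.5 times of 16 and 21. Replicate numbers did not pair libraries (correlations of deviations -0.044 to 0.166), and a replicate block gave 17 higher and 23 lower. Isoform shares on FPKM could not differ from those on TPM except by rounding, since within a library the measures differ only by a constant factor. With library totals alone, log2(TPM + 1) and log2(TPM + 0.1) the log2 fold changes became -0.11, -0.17 and -0.17 for Atp5a1, -0.11, -0.17 and -0.17 for Atp5b, -0.0079, -0.068 and -0.068 for Atp5d, -0.051, -0.10 and -0.10 for Dld, -0.0038, -0.053 and -0.054 for Pdhb, -0.21, -0.26 and -0.26 for Sdhc, and -0.090, -0.15 and -0.15 for Uqcrb. On both TPM scales alone they turned to -0.0080 and -0.0081 for Atp5g2, -0.16 and -0.16 for Cox6b1, -0.0022 and -0.0022 for Cycs, -0.10 and -0.11 for Mrpl39, and -0.0076 and -0.0083 for Ttc19. These 3 settings leave out the TMM factor; a cause beyond that was not tested. Cox8b, at 1 to 8 counts, is limited by depth.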
